A study of Homo sapiens with 6 samples.

Results

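The subject here was ANKRD1 together with other genes of the YAP/TEAD transcriptional programme in A549 cells with and without APEX1 overexpression. The 10 genes (ANKRD1, CYR61, CTGF, AXL, AMOTL1, AMOTL2, LATS2, AJUBA, TEAD1 and YAP1) were taken by gene symbol from the 32192 genes of the count table, and all 10 were found and passed the filter on low counts. They were chosen by earlier results on the same APEX1-OE and Ctrl expression values, so their levels and differences are a description, without a test. A549 is an established human lung adenocarcinoma line with epithelial features. APEX1-OE cells were transfected with a plasmid carrying APEX1 in the pIRES-hrGFP-1a vector, and Ctrl cells with a control plasmid. Polyadenylated RNA was sequenced from 3 libraries per group in a strand-specific bulk protocol. The labels do not say that the 3 libraries of a group came from separate cultures, so the p-values below measure only the spread between these libraries, which may be technical. In bulk RNA, fewer cells expressing a gene and less RNA per cell cannot be told apart.

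In the Hippo pathway, the MST kinases (STK3 and STK4) activate the LATS kinases, which phosphorylate the coactivator YAP1 and hold it in the cytoplasm. Unphosphorylated YAP1 and its relative TAZ (WWTR1) enter the nucleus and bind the TEAD transcription factors at promoters and enhancers, often near AP-1 sites. ANKRD1, CYR61 and CTGF are widely used readouts of this activity in epithelial and carcinoma cells, whereas LATS2, AMOTL2 and related genes are targets whose products restrain YAP1.

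Because TEAD factors bind the motif GGAATG, the RefSeq promoter windows of the members (250 bases before to 50 bases after a transcription start, GRCh38.p14) were searched on both strands for GGAATG or its complement CATTCC, and for the AP-1 motif TGANTCA. A window was read for 8 of the 10 members, that is all but CYR61 and TEAD1, with 11 starts in all. ANKRD1 and CTGF, which had more than 1 TEAD motif in these windows, are shown with YAP1, the coactivator itself. Each line holds the 250 bases before the start, 5′ to 3′ on the strand of the gene, with TEAD motifs in capitals. The ANKRD1 stretch lies at chr10:90921088-90921337 on the minus strand, the CTGF stretch at chr6:131951373-131951622 on the minus strand and the YAP1 stretch at chr11:102110197-102110446 on the plus strand, each directly upstream of the annotated gene.
ANKRD1: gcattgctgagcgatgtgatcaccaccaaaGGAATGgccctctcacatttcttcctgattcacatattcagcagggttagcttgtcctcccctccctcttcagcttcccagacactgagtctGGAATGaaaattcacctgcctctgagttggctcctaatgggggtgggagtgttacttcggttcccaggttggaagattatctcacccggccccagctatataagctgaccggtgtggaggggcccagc
CTGF: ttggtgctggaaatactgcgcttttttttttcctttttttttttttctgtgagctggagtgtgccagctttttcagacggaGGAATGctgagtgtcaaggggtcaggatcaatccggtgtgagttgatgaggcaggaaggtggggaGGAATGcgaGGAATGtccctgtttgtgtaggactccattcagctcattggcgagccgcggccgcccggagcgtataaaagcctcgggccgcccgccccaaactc
YAP1: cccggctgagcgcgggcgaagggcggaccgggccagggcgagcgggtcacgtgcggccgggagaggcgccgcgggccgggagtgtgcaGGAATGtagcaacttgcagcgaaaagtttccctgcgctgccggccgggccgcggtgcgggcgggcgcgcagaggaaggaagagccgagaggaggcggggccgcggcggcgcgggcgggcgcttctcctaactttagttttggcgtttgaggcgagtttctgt
The TEAD motifs of ANKRD1 began at positions -220 and -128 relative to the start, with an AP-1 motif at -195 that overlapped neither of them. In CTGF they began at -169, -104 and -95, and in YAP1 at -162. Single TEAD motifs were also found at the second listed starts of AXL, AMOTL2 and AJUBA, and 10 bases after the start of LATS2, whereas the AMOTL1 window held none. In all, 7 of the 11 member windows held a TEAD motif, compared with 14% of the 35116 RefSeq windows of the same length. At least 2 were present in 1.37% of all windows and at least 3 in 0.128%, and 7.71% held an AP-1 motif. These matches describe letters in the windows and not bound sites. The 11 windows are starts of only 8 members, which were listed as genes of the YAP/TEAD programme. No excess over the other windows is therefore read from them.

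**Figure D1:**
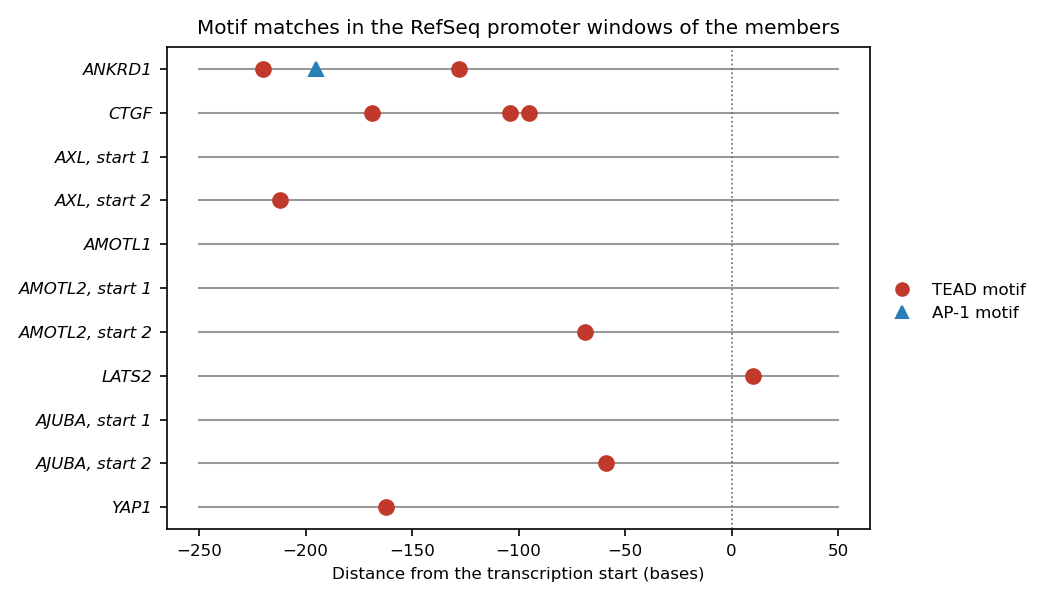
Positions of TEAD motifs (circles) and AP-1 motifs (triangles) in the 11 promoter windows of 8 members, as distance in bases from the transcription start (dotted line). ANKRD1 has 2 and CTGF has 3 TEAD motifs, and the other windows have 1 or none.

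Values of the 3 libraries of a group are given in the order of their replicate numbers. The total was 28131955, 34398771 and 35834880 counts in the Ctrl libraries and 28987040, 41009197 and 35234411 counts in the APEX1-OE libraries. The transfected gene was checked first. APEX1 (ENSG00000100823.11) stood at 128.84, 126.26 and 123.84 FPKM (fragments counted per transcript length and sequencing depth) in the Ctrl libraries and at 617.5, 680.3 and 768.23 FPKM in the APEX1-OE libraries. It was the 1 gene of 16971 tested that passed the threshold of an adjusted p of 0.05 in edgeR's quasi-likelihood test (log2 difference 2.42, SE 0.171, adjusted p = 0.00809, higher in 3 of 3 APEX1-OE libraries). Its log2 difference was between 2.36 and 2.50 in 17 alternatives, but the call was lost when APEX1-OE replicate 2, APEX1-OE replicate 3 or either of the first 2 Ctrl replicates was left out. Transcripts of the plasmid and of the chromosomal gene were not separated. Epithelial keratins were abundant, with KRT8 between 2557.97 and 3562.01 FPKM and KRT18 between 2010.96 and 2837.7 FPKM, whereas EPCAM stood at no more than 0.52 FPKM. As ANKRD1 is also known as a cardiac muscle gene, striated muscle markers were read as well. Of the 8 matched markers of that list, TNNI3 was the most abundant (between 97 and 181 counts and between 2.32 and 4.63 FPKM). The other 7, among them MYH6, MYH7, TNNT2 and DES, had between 0 and 4 counts in every library. The markers of endothelial cells (PECAM1, VWF, CDH5 and KDR) had at most 10 counts in any library. Among the leukocyte markers PTPRC and CD3E had at most 1 count, and CD68 had between 85 and 111. The summed level of the 5 fibroblast markers with an FPKM value was between 0.85 and 1.43 FPKM, led by COL1A1.

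The largest difference among the libraries did not follow the groups. The first principal component of log2 CPM (counts scaled to a common library size by TMM) carried 72.6% of the variance, with APEX1-OE replicate 1 and Ctrl replicates 1 and 2 on one side (side A) and APEX1-OE replicates 2 and 3 and Ctrl replicate 3 on the other (side B). This split followed the GC content of the transcripts. Genes with less than 40% GC had a median log2 difference of 0.86 in side B minus side A, and genes with more than 60% GC a median of -0.60. Across 16746 genes, which are not independent replicates, the Pearson correlation of GC content with this difference was -0.77. Since side B held more APEX1-OE libraries than Ctrl libraries, the members are also described within each side, and the wider lists with the side as a term and within each side.

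ANKRD1 (ENSG00000148677.6) encodes a nuclear ankyrin repeat protein that acts as a transcriptional cofactor, and lies at chr10:90912096-90921087 on the minus strand. It had 209, 323 and 445 counts in the Ctrl libraries and 408, 910 and 625 counts in the APEX1-OE libraries. Its FPKM was 3.10, 3.85 and 4.96 in the Ctrl libraries and 5.67, 9.28 and 7.49 in the APEX1-OE libraries. The groups did not overlap, with every APEX1-OE value above every Ctrl value, APEX1-OE replicate 2 highest and Ctrl replicate 1 lowest. The mean was 7.48 ± 1.81 FPKM (SD, n = 3) in APEX1-OE and 3.97 ± 0.936 FPKM (SD, n = 3) in Ctrl, a ratio of 1.88, and the log2 difference was 0.89 with an SE of 0.251. Within side A the difference in log2 CPM was 0.82, and within side B it was 0.74. Its longest transcript had 42.1% GC, and genes with between 40% and 45% GC had a median log2 difference between APEX1-OE and Ctrl of 0.13. When an offset for GC content and length was fitted for each gene and library, the log2 difference of ANKRD1 was 0.84.

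CYR61 (CCN1, ENSG00000142871.15) and CTGF (CCN2, ENSG00000118523.5) encode secreted matricellular proteins of the CCN family that bind integrins. CYR61 stood at 11.23, 10.78 and 11.68 FPKM in the Ctrl libraries and at 15.74, 17.98 and 14.32 FPKM in the APEX1-OE libraries. The Ctrl libraries were close together and all lay below the APEX1-OE libraries. The mean level was 16.01 ± 1.85 FPKM (SD, n = 3) in APEX1-OE and 11.2 ± 0.45 FPKM (SD, n = 3) in Ctrl, a ratio of 1.43, with a log2 difference of 0.50 (SE 0.203). The CYR61 difference in log2 CPM was 0.63 within side A and 0.45 within side B. CTGF stood at 4.85, 5.42 and 6.67 FPKM in the Ctrl libraries and at 6.88, 8.89 and 7.50 FPKM in the APEX1-OE libraries. Here too the groups did not overlap, but Ctrl replicate 3 and APEX1-OE replicate 1 were close to each other. The mean CTGF level was 7.76 ± 1.03 FPKM (SD, n = 3) in APEX1-OE and 5.65 ± 0.931 FPKM (SD, n = 3) in Ctrl, a ratio of 1.37, with a log2 difference of 0.45 (SE 0.216). The CTGF difference in log2 CPM was 0.53 within side A and 0.29 within side B.

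**Figure D2:**
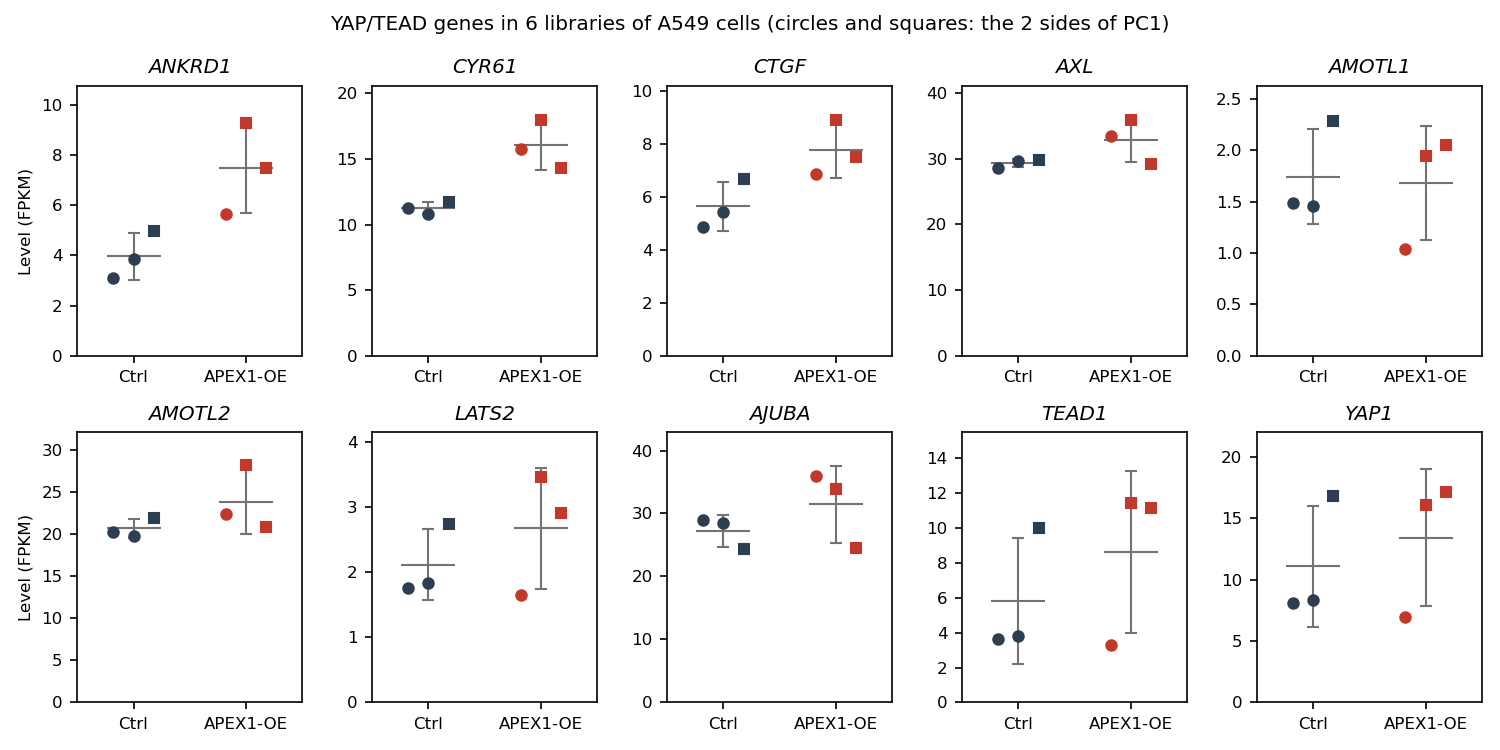
Level in FPKM of the 10 members in each library of Ctrl (dark) and APEX1-OE (red), with the mean (horizontal line) and SD (bars) of 3 libraries; circles are side A and squares side B of the first principal component. ANKRD1, CYR61 and CTGF do not overlap between the groups, and TEAD1 and YAP1 are high in the 3 libraries of side B.

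AXL (ENSG00000167601.11) encodes a receptor tyrosine kinase that binds the ligand GAS6 and is a known YAP/TEAD target in lung cancer cells. It stood at 28.54, 29.63 and 29.73 FPKM in the Ctrl libraries and at 33.5, 35.86 and 29.13 FPKM in the APEX1-OE libraries. The groups overlapped, as APEX1-OE replicate 3 lay among the Ctrl libraries in FPKM. In CPM that library (162) was below every Ctrl library, of which the lowest was replicate 3 (168). The log2 difference was 0.16 (SE 0.192), and 0.03 without APEX1-OE replicate 1 and 0.28 without APEX1-OE replicate 3.

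The members that feed back on the pathway also overlapped between the groups. AMOTL1 (ENSG00000166025.17) and AMOTL2 (ENSG00000114019.14) encode angiomotin-like proteins that bind YAP1 at cell junctions. AMOTL1 stood at 1.49, 1.46 and 2.28 FPKM in the Ctrl libraries and at 1.04, 1.94 and 2.05 FPKM in the APEX1-OE libraries. AMOTL2 stood at 20.31, 19.84 and 21.95 FPKM in the Ctrl libraries and at 22.48, 28.25 and 20.91 FPKM in the APEX1-OE libraries. The highest AMOTL1 level was in Ctrl replicate 3 and the lowest in APEX1-OE replicate 1, whereas AMOTL2 was highest in APEX1-OE replicate 2. The log2 difference was -0.09 (SE 0.274) for AMOTL1, below 0 in both side A (-0.39) and side B (-0.20), and 0.09 without APEX1-OE replicate 1 or without Ctrl replicate 3. The AMOTL2 log2 difference was 0.19 (SE 0.193), 0.10 without APEX1-OE replicate 2 and 0.32 without APEX1-OE replicate 3.

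LATS2 (ENSG00000150457.8) encodes a kinase that phosphorylates YAP1, and AJUBA (ENSG00000129474.15) a LIM protein that binds and inhibits LATS kinases and thereby favours YAP1 activity. LATS2 stood at 1.76, 1.83 and 2.74 FPKM in the Ctrl libraries and at 1.65, 3.45 and 2.91 FPKM in the APEX1-OE libraries. AJUBA stood at 28.95, 28.46 and 24.36 FPKM in the Ctrl libraries and at 36.01, 33.91 and 24.49 FPKM in the APEX1-OE libraries. LATS2 was high in the libraries of side B, and AJUBA was low in APEX1-OE replicate 3 and Ctrl replicate 3. The log2 difference was 0.31 (SE 0.282) for LATS2, -0.01 when taken within side A and 0.11 without APEX1-OE replicate 2. It was 0.48 without APEX1-OE replicate 1, and also 0.48 without Ctrl replicate 3. The AJUBA log2 difference was 0.21 (SE 0.251), -0.02 without APEX1-OE replicate 1 and 0.09 without Ctrl replicate 3. It was 0.40 without APEX1-OE replicate 3 and 0.35 with the side as a term in the fit.

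TEAD1 (ENSG00000187079.14) encodes a DNA-binding factor of the pathway and YAP1 (ENSG00000137693.13) its coactivator. TEAD1 stood at 3.65, 3.82 and 9.99 FPKM in the Ctrl libraries and at 3.27, 11.46 and 11.14 FPKM in the APEX1-OE libraries. YAP1 stood at 8.12, 8.35 and 16.78 FPKM in the Ctrl libraries and at 6.99, 16.05 and 17.15 FPKM in the APEX1-OE libraries. Both genes were high in the 3 libraries of side B and low in the 3 libraries of side A, whichever plasmid the cells had received. Between the Ctrl libraries alone, side B minus side A was 1.28 in log2 CPM for TEAD1 and 0.88 for YAP1. The log2 difference between APEX1-OE and Ctrl was 0.53 (SE 0.490) for TEAD1, 0.05 with the side as a term in the fit, 0.28 when Ctrl replicate 1 was left out and 1.09 when Ctrl replicate 3 was. For YAP1 it was 0.24 (SE 0.352), -0.07 with the side as a term, and 0.06 and 0.60 when the same Ctrl libraries were left out in turn. The transcripts of TEAD1 and YAP1 had 43.0% and 43.5% GC.

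**Figure D3:**
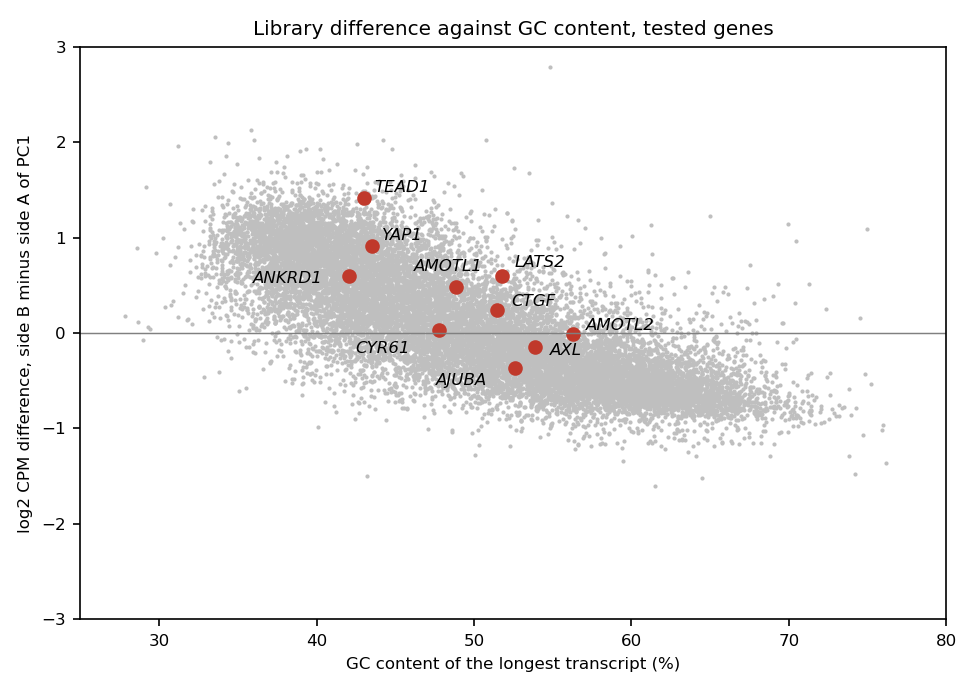
Log2 CPM difference of side B minus side A against the GC content of the longest transcript for 16742 tested genes (grey; 4 lie outside the axes), with the 10 members in red. Genes of low GC content are higher in side B, and TEAD1 and YAP1 lie among them.

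The differences between APEX1-OE and Ctrl were also taken within each side. ANKRD1, CYR61, CTGF, AXL, AMOTL2 and AJUBA had a higher mean in APEX1-OE in both sides, as in the reported fit. For ANKRD1, CYR61 and CTGF both APEX1-OE libraries of side B were above Ctrl replicate 3. For AXL, AMOTL2 and AJUBA, APEX1-OE replicate 3 was below Ctrl replicate 3 (162 and 168, 113 and 121, 132 and 134 CPM). AMOTL1 was lower in both sides, as in the reported fit. YAP1 was slightly below 0 in both sides (-0.12 and -0.02), and LATS2 and TEAD1 were slightly below 0 in side A (-0.01 and -0.08) and above 0 in side B (0.20 and 0.17). These within-side differences rest on 1 APEX1-OE library against 2 Ctrl libraries in side A, and on 2 against 1 in side B. AMOTL1, LATS2, TEAD1 and YAP1, that is 4 of the 10 members, had all 3 libraries of side B above all 3 of side A in CPM, which was also the case for 35.5% of the 16971 tested genes.

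**Figure D4:**
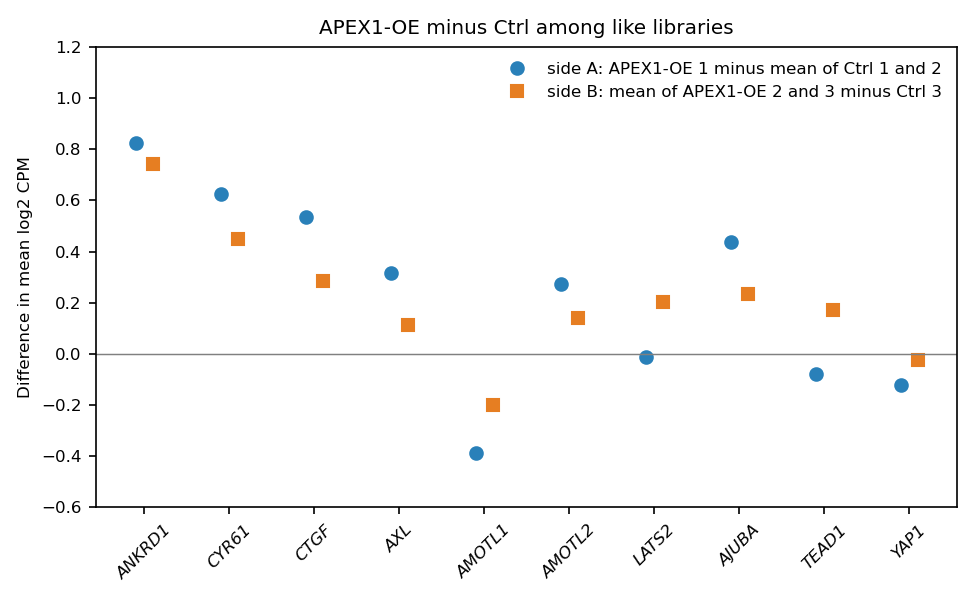
Difference in mean log2 CPM, APEX1-OE minus Ctrl, of each member within side A (circles) and within side B (squares). ANKRD1 is at 0.82 and 0.74, and YAP1 at -0.12 and -0.02.

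None of the 10 members was called in edgeR's quasi-likelihood test, in which 0.00589% of the 16971 tested genes were called. In CPM, 3 of the 10 members (ANKRD1, CYR61 and CTGF) had no overlap between the groups with APEX1-OE higher, as had 1.38% of the tested genes, whereas 0 of the 10 members were without overlap in the other direction, compared with 2.01% of the tested genes. The log2 difference was above 0 for 9 of the 10 members, with a median of 0.28 compared with 0.03 over all tested genes. As the members were chosen from this contrast, nothing is read from these counts.

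The members covered a wide range of expression. In Ctrl, the mean level was highest for AXL (29.3 FPKM) and AJUBA (27.3 FPKM), whose libraries overlapped, followed by AMOTL2 (20.7 FPKM), which lay below both and above CYR61. CYR61 (11.2 FPKM) and YAP1 (11.1 FPKM) came next. CYR61 overlapped YAP1, YAP1 overlapped TEAD1 (5.82 FPKM), TEAD1 overlapped CTGF (5.65 FPKM), and CTGF overlapped ANKRD1 (3.97 FPKM). LATS2 (2.11 FPKM) and AMOTL1 (1.74 FPKM) were lowest, overlapped each other and lay below ANKRD1. ANKRD1 was among the less abundant members. Its log2 difference was the largest of the 10 in the reported fit, but without Ctrl replicate 3 it was 1.03, below the 1.09 of TEAD1.

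The rest of the pathway was read from 5 wider lists of 63 genes, of which 59 were tested (AMOT, CNN1 and WISP3 did not pass the filter on low counts, and VGLL1 was not matched). None was called by edgeR's quasi-likelihood test over all genes, in either direction, nor by DESeq2 or by limma on FPKM. In edgeR 1 of the 59 had an unadjusted p under 0.05, as had 118 of all 16971 tested genes, and the lowest adjusted p was 0.99998. This count was 11 with the side as a term (1973 of 16971 over all genes) and 9 with the offset for GC content and length and the side (2112 of 16746). It was 3 with that offset alone (502 of 16746) and 4 with the replicate block (561 of 16971). It was 7 without APEX1-OE replicate 1 (1324 of 17409) and 5 without Ctrl replicate 3 (595 of 17150). With APEX1-OE replicate 2 or 3 left out it was 0 (66 of 17227 and 150 of 17214). With Ctrl replicate 1 or 2 left out it was also 0 (81 of 17400 and 73 of 17409). Without a filter on low counts it was 4 (628 of 32192), and with the stricter filter 0 (51 of 14202). Among the Hippo kinases and upstream regulators, 18 of 19 were tested. The median log2 difference was 0.23 with 16 of the 18 above 0, compared with 9759 of all 16971 tested genes. This median was 0.48 without APEX1-OE replicate 1 and 0.53 without Ctrl replicate 3, with 13 of 18 above 0 in both, and between 0.11 and 0.14 when any other library was left out. With the offset for GC content and length it was 0.08 with 13 of 18 above 0 (50.6% of all tested genes). With the side as a term the median was 0.02 with 10 of 18 above 0 (51.6% of all tested genes). Within side A it was -0.07 with 8 of 18 above 0 (48.6% of all tested genes), and within side B 0.07 with 17 of 18 above 0 (62.2% of all tested genes). WWC1, the junctional scaffold KIBRA, had the highest level of this list (between 21.33 and 27.49 FPKM) with a log2 difference of 0.07 (SE 0.171). The kinase adaptor MOB1A was at 0.27 (SE 0.327) and the upstream kinase TAOK2 at -0.0024 (SE 0.249) on the same scale, and with the side as a term these were -0.05 and 0.16. In the reported fit FRMD6, a FERM domain protein upstream of the kinases, had the largest positive log2 difference of this list (0.70, SE 0.380). The AJUBA relative LIMD1 had the most negative one in that fit (-0.04, SE 0.183). With the side as a term these were 0.35 and 0.0046. Neither rank held within the sides. Several other genes of the list, among them TAOK2 (0.25), lay above FRMD6 (0.15) in side A. In side B a gene of the list also lay above FRMD6 (0.52). Lower values than that of LIMD1 (-0.06 in side A, 0.06 in side B) were also present in each side. In this list 12 of the 18 tested genes had all libraries of side B above those of side A, as had 35.5% of all tested genes.

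Of the nuclear effectors 6 were tested, with a median log2 difference of 0.07. It was 0.17 with the side as a term, 0.12 within side A and 0.15 within side B, and -0.06 without APEX1-OE replicate 1. WWTR1, which encodes TAZ, ranged from 8.82 to 22.02 FPKM with a log2 difference of 0.17 (SE 0.312). It was -0.13 with the side as a term and -0.02 without APEX1-OE replicate 3, but 0.41 without APEX1-OE replicate 1 and 0.40 without Ctrl replicate 3. The TEAD factors TEAD2, TEAD3 and TEAD4 had log2 differences of -0.02 (SE 0.259), -0.04 (SE 0.299) and 0.11 (SE 0.274). With the side as a term these were 0.16, 0.18 and 0.29, and without APEX1-OE replicate 1 they were -0.27, -0.30 and -0.15. VGLL3, a TEAD cofactor expressed below 1 FPKM in every library, had a log2 difference of 0.82 with an SE of 0.601. It was 0.26 with the side as a term, 0.51 without Ctrl replicate 1 and 1.56 without Ctrl replicate 3.

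In the reported fit the 16 other YAP/TEAD targets all had a log2 difference above 0, compared with 57.5% of all tested genes, with a median of 0.24. Without APEX1-OE replicate 1 it was 12 of the 16 (median 0.39, 49.2% of all tested genes), and without APEX1-OE replicate 2 it was 13 (median 0.10, compared with 10182 of 16961 tested genes). It was 14 (median 0.48, 51.3%) when Ctrl replicate 3 was left out, and 15 when Ctrl replicate 1 or 2 was (medians 0.16 and 0.15). With the offset for GC content and length 15 of the 16 were above 0 (median 0.17), compared with 50.6% of all tested genes. Within side A 8 were above 0 (median 0.0024), compared with 48.6% of all tested genes, and within side B 12 (median 0.10), compared with 62.2%. With the side as a term 10 were above 0 (median 0.03), compared with 51.6%. F3 and GADD45A, that is 2 of the 16, had APEX1-OE libraries all above Ctrl libraries in CPM, as had 1.38% of all tested genes. F3, which encodes tissue factor, had 9, 21 and 31 counts in the Ctrl libraries and 26, 52 and 45 counts in the APEX1-OE libraries. Its log2 difference was 0.93 (SE 0.337, unadjusted p = 0.0247, adjusted p = 0.99998 from edgeR), and its low counts limit the precision. GADD45A, a growth arrest gene, had a log2 difference of 0.31 (SE 0.178), but in FPKM its groups overlapped, with APEX1-OE replicate 1 at 36.96 and Ctrl replicate 3 at 38.09. The most abundant targets of the list were IGFBP3, a secreted binding protein of insulin-like growth factors, with a log2 difference of 0.0025 (SE 0.168), GADD45A, and the membrane repair gene MYOF at 0.24 (SE 0.354). With the side as a term IGFBP3 was at -0.02 and MYOF at -0.10. MYOF was at 0.57 without Ctrl replicate 3, 0.49 without APEX1-OE replicate 1 and 0.0075 without APEX1-OE replicate 2. In this list 9 of the 16 genes had all libraries of side B above those of side A, as had 35.5% of all tested genes.

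The cytoskeletal targets of MRTF and SRF, which respond to actin dynamics and partly overlap in function with YAP/TEAD targets, had a median log2 difference of 0.01 over 11 tested genes, 0.15 with the side as a term, 0.22 within side A, 0.07 within side B, -0.17 without APEX1-OE replicate 1 and -0.07 without Ctrl replicate 3. FLNA, ACTN1 and ZYX, encoding filamin A, alpha-actinin and zyxin, had log2 differences of 0.04 (SE 0.241), 0.01 (SE 0.162) and 0.20 (SE 0.306). TAGLN and ACTA2, both smooth muscle contractile genes, were at 0.25 (SE 0.303) and -0.12 (SE 0.227). When the side was a term FLNA was at 0.18, ACTN1 at 0.04, ZYX at 0.40, TAGLN at 0.45 and ACTA2 at 0.0079. Without APEX1-OE replicate 1 all 5 were below 0, with FLNA at -0.20, ACTN1 at -0.02, ZYX at -0.17, TAGLN at -0.09 and ACTA2 at -0.31. FLNA and ACTN1 were also below 0 without Ctrl replicate 3 (-0.07 and -0.02), and ACTA2 was at 0.01 without APEX1-OE replicate 3. The paralogs of ANKRD1, CYR61, CTGF and AXL, with the AXL ligand GAS6, had a median of -0.08 over 8 tested genes, 0.04 with the side as a term, -0.01 within side A, 0.0022 within side B and -0.30 without APEX1-OE replicate 1. ANKRD2 was at -0.21 (SE 0.322) and ANKRD23 at -0.07 (SE 0.357). Among the CCN genes NOV was at 0.02 (SE 0.398), WISP1 at -0.02 (SE 0.514) and WISP2 at -0.19 (SE 0.315), whereas WISP3 had at most 1 count in any library. TYRO3 and MERTK, the receptors related to AXL, were at -0.02 (SE 0.280) and -0.12 (SE 0.297), and GAS6 at -0.08 (SE 0.304). With the side as a term ANKRD2, ANKRD23, WISP2, TYRO3 and GAS6 turned to between 0.02 and 0.16, whereas NOV was at -0.31, WISP1 at -0.45 and MERTK at -0.33. WISP1 was at -0.72 without APEX1-OE replicate 3 and at 0.33 without Ctrl replicate 3.

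**Figure D5:**
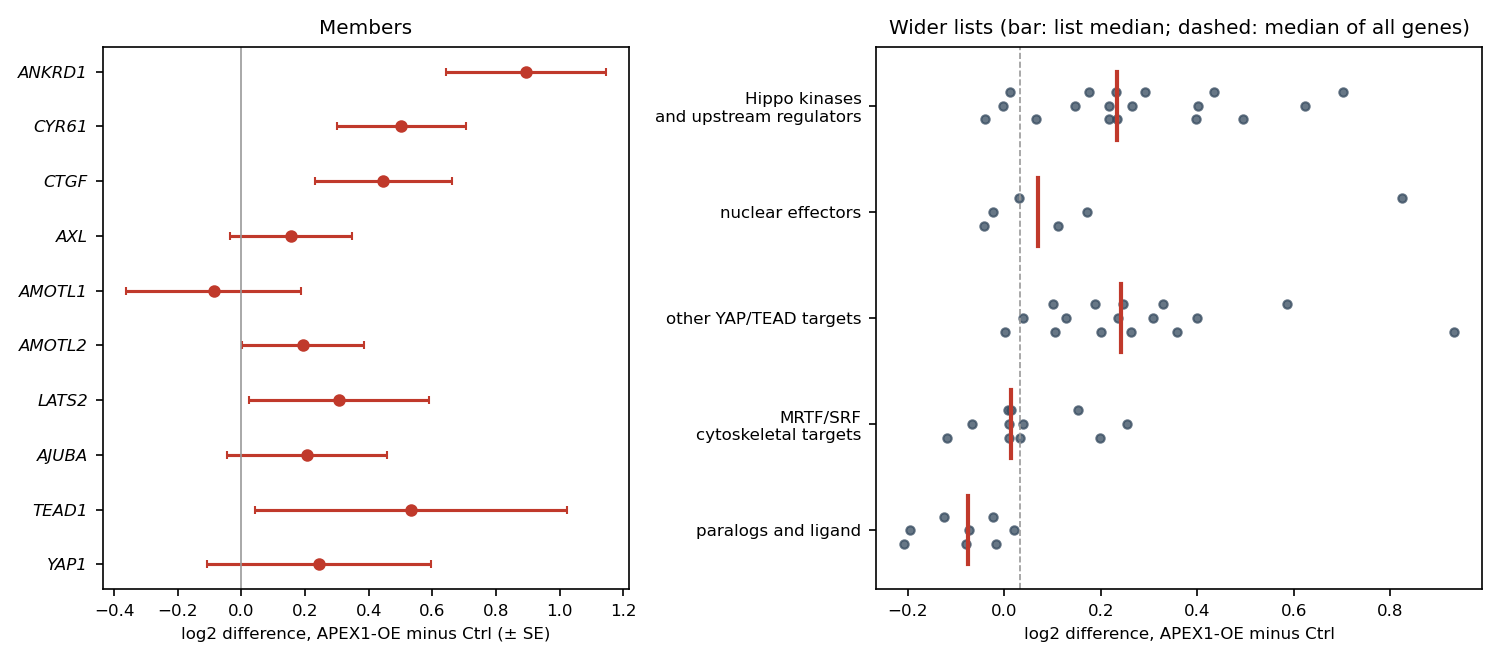
Log2 difference, APEX1-OE minus Ctrl, of the 10 members with its SE (left) and of the 59 tested genes of 5 wider lists (right), where red bars are list medians and the dashed line is the median of all tested genes (0.03). In this fit ANKRD1 is highest among the members, and no gene of the lists was called.

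The 5 genes whose log2 CPM was most like that of ANKRD1 over the 6 libraries, of 14078 genes compared, were CH17-431G21.1 (Pearson r = 0.9983), BRCA2 (0.9913), ZFP36L2 (0.9830), KIAA1551 (0.9719) and RP1-257A7.4 (0.9707). CH17-431G21.1, BRCA2 and RP1-257A7.4 stood at no more than 2.66 CPM in any library, near the required mean of 1 CPM. The correlation is a measure of likeness over few libraries that share the group difference and the side. ZFP36L2, an RNA-binding protein gene, stood at 26.9, 27.7 and 31.0 CPM in the Ctrl libraries and at 35.4, 39.2 and 34.8 CPM in the APEX1-OE libraries. As with ANKRD1, APEX1-OE replicate 2 was highest, and among the Ctrl libraries replicate 3. Among the other members, CTGF ranked 7 by this measure (r = 0.97), CYR61 244 (0.79), LATS2 452 (0.73), TEAD1 1134 (0.63), AMOTL2 1869 (0.57), YAP1 2205 (0.54), AXL 4502 (0.36), AJUBA 6187 (0.14) and AMOTL1 6240 (0.13).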

How the data were processed

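RNA of 6 A549 libraries, 3 APEX1-OE and 3 Ctrl, was analysed, with groups and replicate numbers from the sample labels. The authors aligned reads to GRCh38 with TopHat2 and deposited raw counts per gene, made from reads with a unique alignment. The authors also deposited FPKM per gene from the same reads, rounded to 2 decimals. The counting tool, its annotation and its strand setting were not stated in the sources read, so reads of overlapping or antisense genes may be shared, and stretches that closely related genes have in common may be undercounted. Members and lists were chosen with earlier results of these data known. Genes passing edgeR's filterByExpr (minimum count 10, minimum total 15) were scaled by TMM. The robust quasi-likelihood F-test compared the conditions without covariates, and p-values were adjusted over all tested genes by Benjamini-Hochberg with a threshold of 0.05 (R 4.3.3, edgeR 4.0.16, limma 3.58.1, DESeq2 1.42.0). Log2 CPM used a prior count of 2. GC content and exon length came from GENCODE 44 for 98.7% of tested genes. Promoter sequences came from RefSeq (GRCh38.p14). Named genes were the members, APEX1, any called pathway gene, the 3 most abundant and the most positive and most negative genes of each list, all paralogs, and the 5 genes most correlated with ANKRD1 (mean of at least 1 CPM). Alternatives covered normalization, filters, DESeq2, limma on log2(FPKM + 1) and log2(FPKM + 0.1), each library left out, a replicate block, the side of the first principal component, and a spline offset for GC content and length, with 5 degrees of freedom for either property. Splicing was not analysed here, and 1 of the listed leukocyte markers is not reported here.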

Additional observations from a re-analysis of the deposited data

How the results depend on the processing

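The number of genes called was 1 in the fit reported above. It was 10 with no filter on low counts (7 higher, 3 lower), 4 with the principal component side as a term (APEX1, IFNL3, GREM1 and JUN, named after their values were seen), and 12 with that term and the offset for GC content and length (11 higher, 1 lower). Leaving out 1 library at a time gave 0 to 1, and 0 without APEX1-OE replicate 2 or 3 or without Ctrl replicate 1 or 2. With the replicate block it was 2 (APEX1 and FP236383.4). The deviations of libraries with the same replicate number correlated at 0.61, -0.52 and 0.70. Such correlations were positive between libraries of the same side and negative between sides. They therefore cannot show whether the replicate numbers pair the libraries. The number of genes called from the wider lists was 0 under every alternative run. The log2 difference of ANKRD1 was above 0 in all 19 alternatives (0.74 to 1.03), as was that of CYR61 (0.41 to 0.63), CTGF (0.29 to 0.53), AXL (0.03 to 0.32) and AMOTL2 (0.10 to 0.32); the within-side values among these were chosen after seeing the data. The sign was kept in 18 of 19 alternatives for AJUBA, LATS2 and TEAD1, in 17 for AMOTL1 and in 16 for YAP1. F3 was above 0 in all 16 alternatives that kept it (0.22 to 1.21); the stricter filter of 1 CPM in 3 libraries removed it. Of the other named genes of the wider lists, WWC1, FRMD6, VGLL3 and GADD45A were above 0 in all 17 alternatives, and each of the rest changed sign in at least 1. The within-side counts and medians of the lists were added after seeing the data. Only 3 libraries per group, and counts as low as 9 for F3, limit the precision.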
